A study of Mus musculus with 6 samples.

Results

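Mitochondrial fatty acid oxidation was followed through 38 genes in whole embryonic mouse hearts. The genes were matched by symbol to a table of 45792 genes and cover uptake and activation of fatty acids, the carnitine shuttle, the beta oxidation spiral, electron transfer, thioesterases, malonyl-CoA, the lipid store, the choice of fuel, and 5 transcriptional regulators. All 38 were found. Of these, 37 had enough counts to be tested, among 17125 genes in all, and the remaining gene was Ucp3, an uncoupling protein of the inner mitochondrial membrane, which had between 5 and 14 counts per heart.

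Both groups held 3 hearts of embryonic day 13.5, from control embryos in the first and from embryos of genotype Tie2Cre;Ino80 fl/fl in the second, and the comparison asks how RNA levels in the whole heart differ when the chromatin remodeller Ino80 is deleted from endothelial cells. Tie2Cre expresses the recombinase in endothelial and endocardial cells and their descendants, the Ino80 allele has exon 6 flanked by loxP sites, and cardiomyocytes, in which most fatty acid oxidation of the heart takes place, were not the target of the deletion. The labels give the controls as wild type and the strain as C57BL/6, whereas the study describes controls as every genotype other than Tie2Cre;Ino80 fl/fl and its mice as being of mixed background. The study used controls from the same litters and embryos of both sexes that were not genotyped for sex, but neither source ties a litter, sex or batch to a sequenced heart. Each heart was a library of its own.

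Fatty acids are carried through the cytosol by binding proteins, linked to coenzyme A, and moved into mitochondria as carnitine esters. There the spiral of beta oxidation removes acetyl-CoA units through dehydrogenation, hydration, a further dehydrogenation and thiolysis, and its electrons reach ubiquinone through the electron transfer flavoprotein. In the heart the genes are known targets of the nuclear receptor PPAR-alpha and of estrogen-related receptors, together with the PGC-1 coactivators. The fetal heart relies mainly on glucose and lactate, and the pathway is known to gain importance around birth.

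Libraries held between 28948836 and 89675692 counts, a range of 3.10-fold. Levels are given in CPM, a gene's counts per M counts of its TMM-scaled library, and a positive fold change means a higher level in the hearts labelled mutant. Ino80 was at 30.2, 31.6 and 32.7 CPM in control hearts 1 to 3 and at 36.5, 33.7 and 31.8 CPM in mutant-labelled hearts 1 to 3, a log2 fold change of 0.11 ± 0.08 (SE) with an adjusted p of 0.473 (edgeR), so the whole-heart counts did not show the deletion. They sum the whole gene over all cells, whereas the allele removes exon 6 in endothelial cells. In endothelial cells isolated from hearts of this genotype at a later stage, the study could not detect Ino80 mRNA by quantitative PCR. Below, "mutant" stands for the label. The tissue label held, with the summed level of 16 cardiomyocyte markers between 30905 and 38030 CPM in each heart, and that of 9 liver markers at 2.18 CPM or less, with Fgb at 0 in all 6 hearts. No gene of the table, and so no member, passed an adjusted p of 0.05 in edgeR's quasi-likelihood test, in either direction (0% of tested genes lower and 0% higher).

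Members were lower in the mutant-labelled hearts far more often than higher. At an unadjusted p under 0.05, 23 of the 37 members were lower and 0 were higher in edgeR, where 9.98% of all tested genes were lower and 9.48% higher. In 21 members all 3 mutant-labelled hearts lay under all 3 control hearts and in 0 members all lay above, against 12.8% of all tested genes lying under and 14.3% above. The fold change was negative for 34 of the 37, and positive for Cpt1b, Slc27a1 and Esrrg, each with overlapping groups. The median log2 fold change of the members was -0.31, and that of all tested genes was -0.0017. The 23 genes stood at 37.0% to 84.9% of their control mean, with adjusted p from 0.0810 to 0.234 in edgeR, and 5 of them (Acadl, Acsl1, Acadvl, Etfdh and Pdk4) had an adjusted p under 0.1.

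The number of calls depended on the tool and on a single heart. DESeq2's Wald test gave an adjusted p for 36 of the members, of which 15 fell and 0 rose at 0.05, where 3.43% of the genes given an adjusted p fell and 2.67% rose. Without control heart 1, edgeR's adjusted p was under 0.05 for 10 members, all lower, beside 2.49% of genes lower and 1.85% higher. Of these 10, 9 were also among the 15 of DESeq2, and the other was Ppargc1b.

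**Figure D1:**
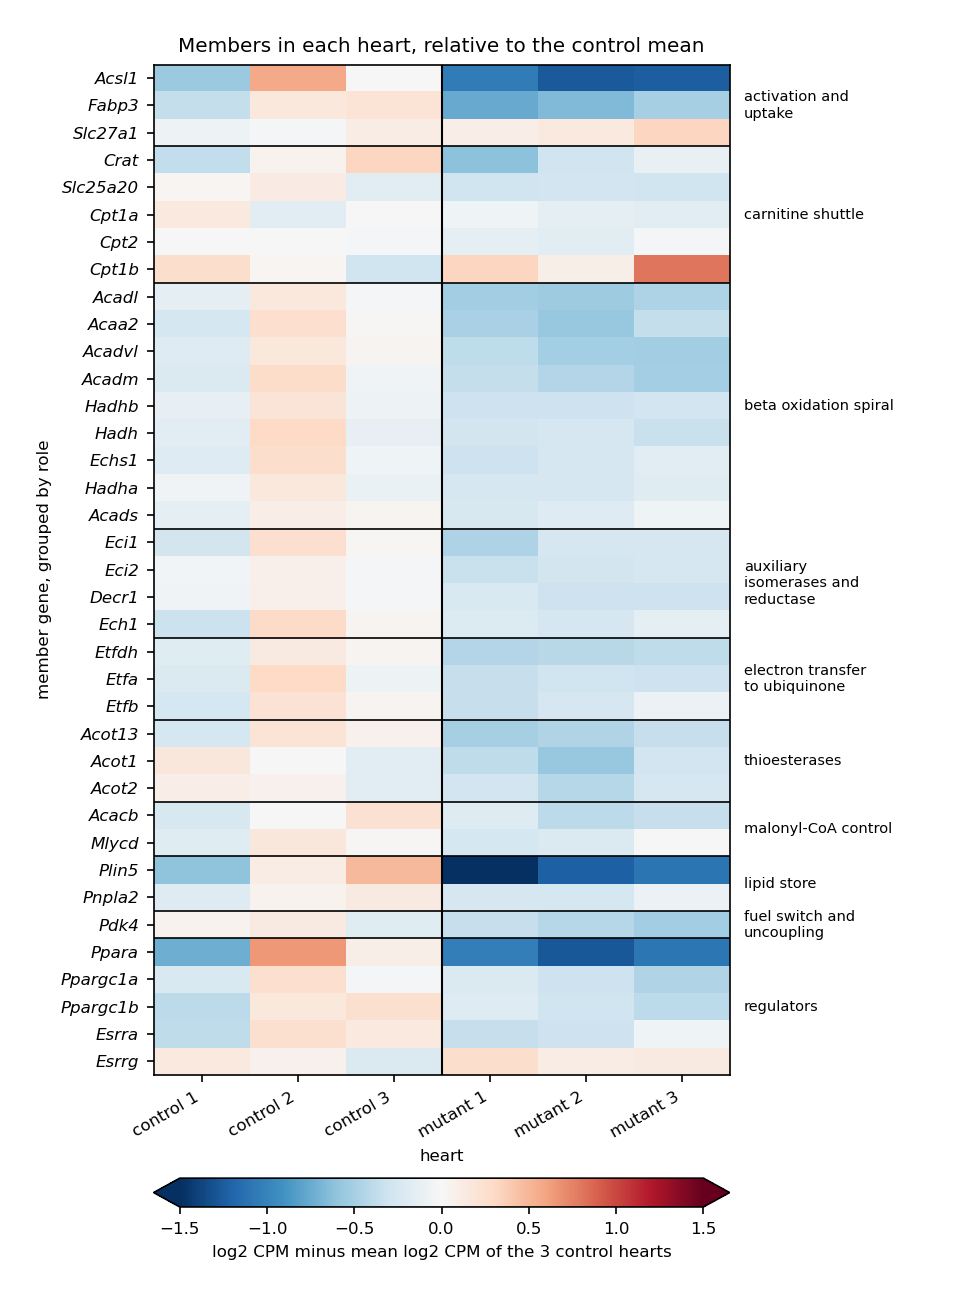
Heat map of the 37 tested members (rows, grouped by role) in the 6 hearts (columns); the colour is the log2 CPM of a heart minus the mean log2 CPM of the 3 control hearts, with blue for lower and red for higher. The mutant-labelled columns are blue for most members, control 2 is red in most, and control 1 is the palest or bluest of the controls, being the lowest control in 28 of the 37.

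The order of the control hearts was much the same from member to member. Control heart 1 was the lowest control for 28 of the 37 members, where it was the lowest for 32.6% of all tested genes, and control heart 2 was the highest for 25. Control heart 1 was also the control nearest to the mutant mean for 29 members, against 43.4% of all tested genes. Summed over the 38 members, levels were 4675, 6064 and 5364 CPM in control hearts 1 to 3 and 4066, 4075 and 4262 CPM in mutant-labelled hearts 1 to 3. The sums did not overlap, and the controls were spread over a wider range than the mutant-labelled hearts. For a median member the SD was 16.2% of the mean among controls and 6.24% among mutant-labelled hearts. Of the 16 members whose groups overlapped, 15 had control heart 1 at or under the highest mutant-labelled heart, whereas control hearts 2 and 3 were so placed for 4 and 3 members.

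Among the genes of uptake and activation, those for the binding protein and for the synthetase had the lower levels, and that for the transporter did not. Acsl1 (chr8:46471037-46536051 on GRCm38), which encodes the main acyl-CoA synthetase for long chains in heart and fat, was at 89.6, 196 and 131 CPM in control hearts 1 to 3 and at 63.6, 55.1 and 55.9 CPM in mutant-labelled hearts 1 to 3. All mutant-labelled hearts were under the lowest control, and the log2 fold change was -1.25 ± 0.24 (SE, n = 3 and 3), with an adjusted p of 0.0833 in edgeR and 2.47e-06 in DESeq2. Fabp3 (chr4:130308595-130315463), the cytosolic fatty acid binding protein of heart and muscle, was at 349, 500 and 518 CPM in controls and at 265, 284 and 318 CPM in mutant-labelled hearts. The groups were apart here too, with a log2 fold change of -0.66 ± 0.15 and an adjusted p of 0.10 in edgeR and 0.000845 in DESeq2. Part of the Fabp3 count is uncertain, since 24.2% of the 76-base windows of its exons also occur in the processed pseudogene Fabp3-ps1. Fabp3-ps1 itself had a log2 fold change of -0.76, and with its counts added to those of Fabp3 the value was -0.69, with an adjusted p of 0.0934 in edgeR. Slc27a1, a fatty acid transport protein of the plasma membrane, ranged from 12.6 to 14.4 CPM in controls and from 14.3 to 16.7 CPM in mutant-labelled hearts, and these ranges touched.

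**Figure D2:**
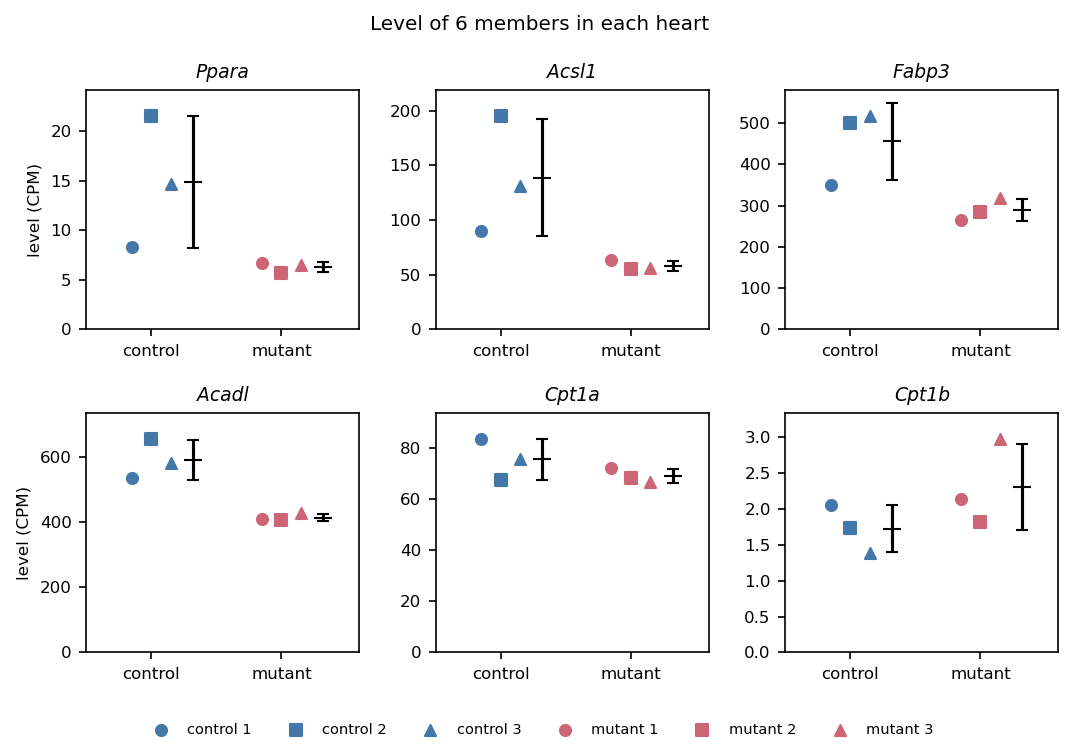
Levels in CPM (vertical axes from 0) of Ppara, Acsl1, Fabp3, Acadl, Cpt1a and Cpt1b in each of the 3 control and 3 mutant-labelled hearts, with marker shapes for replicate numbers and the mean with its SD in black beside them. For Ppara, Acsl1, Fabp3 and Acadl every mutant-labelled heart lies under every control, with control 1 the nearest control, while for Cpt1a and Cpt1b the groups overlap.

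In the carnitine shuttle, through which long-chain acyl groups enter mitochondria, the 5 genes had log2 fold changes from -0.36 for Crat to 0.40 for Cpt1b. Cpt1a (chr19:3322334-3385733), the liver isoform of the enzyme of the outer membrane that makes acylcarnitine, was at 83.7, 67.6 and 75.8 CPM in control hearts 1 to 3 and at 72.4, 68.2 and 67.0 CPM in mutant-labelled hearts 1 to 3. The groups overlapped, with a log2 fold change of -0.13 (95% interval -0.33 to 0.07) and an adjusted p of 0.436 in edgeR, and the value was -0.05 without control heart 1 and -0.20 without control heart 2. Cpt1b (chr15:89416405-89425863), the muscle isoform, was at 2.05, 1.74 and 1.39 CPM in controls and at 2.13, 1.81 and 2.97 CPM in mutant-labelled hearts, with mutant-labelled heart 3 the highest. Its log2 fold change was 0.40 (95% interval -0.20 to 1.01), with an adjusted p of 0.411 in edgeR, and 0.20 without mutant-labelled heart 3. In the annotation, 81.4% of the exon bases of Cpt1b also belong to Gm44502, a readthrough gene on the same strand, so that its count may leave out reads of the shared exons. The log2 ratio of Cpt1b to Cpt1a, which does not depend on library scaling, was -5.35, -5.28 and -5.77 in controls and -5.09, -5.24 and -4.49 in mutant-labelled hearts. It was higher in all mutant-labelled hearts, by 0.53 on average, with an exact two-sided permutation p of 0.1, the smallest that 3 against 3 can give. Control heart 2 and mutant-labelled heart 2 were almost level, on 51 and 77 counts of Cpt1b, and mutant-labelled heart 3 lay farthest from the controls.

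Within the shuttle, Slc25a20 (chr9:108662088-108684641), the carnitine/acylcarnitine carrier of the inner membrane, was at 57.7, 61.8 and 50.8 CPM in controls and at 46.1, 46.5 and 45.9 CPM in mutant-labelled hearts. The 3 mutant-labelled values were close together and under all controls, with a log2 fold change of -0.30 ± 0.09 and an adjusted p of 0.139 in edgeR. Cpt2, which returns the acyl group to coenzyme A in the matrix, had a log2 fold change of -0.11 with groups that just failed to overlap. Crat, the carnitine acetyltransferase for short chains, had one of -0.36 with overlapping groups. At the unadjusted threshold Slc25a20 alone of the 5 shuttle genes was lower, and DESeq2 called 0 of them.

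Both members that set malonyl-CoA, the inhibitor of the Cpt1 enzymes, had overlapping groups. Acacb (chr5:114146535-114250761), the acetyl-CoA carboxylase of the mitochondrial surface, which makes malonyl-CoA, was at 98.0, 117 and 136 CPM in controls and at 101, 88.5 and 91.5 CPM in mutant-labelled hearts. Only control heart 1 fell within the mutant range, and the log2 fold change was -0.32 ± 0.12 with an adjusted p of 0.207 in edgeR, or -0.19 without control heart 3. Mlycd, the decarboxylase that removes malonyl-CoA, had a log2 fold change of -0.16.

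The 9 genes of the beta oxidation spiral all had negative fold changes, 7 of them at an unadjusted p under 0.05 in edgeR, and 5 (Acadl, Acaa2, Acadvl, Acadm and Hadhb) fell by DESeq2's adjusted p. The median log2 fold change of the 9 was -0.31. Their summed level was 2287, 2924 and 2464 CPM in control hearts 1 to 3 and 1969, 1949 and 2018 CPM in mutant-labelled hearts 1 to 3, so every mutant-labelled heart was under every control.

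The promoters of the 4 spiral genes that fell by DESeq2's adjusted p and have a promoter entry are shown. That of Hadhb lies between the back-to-back RefSeq starts of Hadha and Hadhb, which have 272 bases between them. The GENCODE span of Hadha, given below, reaches into that stretch. The sequences are the 250 bases before the RefSeq start on GRCm38.p6, on the strand of the gene, and capitals mark the nuclear receptor core site AGGTCA, on either strand, in Acadm and Acadvl and the SP/KLF box GGGCGG, on either strand, in Acadl, which holds no AGGTCA, and Hadhb. They lie at chr1:66863310-66863559 on the minus strand for Acadl, at chr3:153944644-153944893 on the minus strand for Acadm, at chr11:70015429-70015678 on the minus strand for Acadvl, and at chr5:30155003-30155252 on the plus strand for Hadhb.
Acadl: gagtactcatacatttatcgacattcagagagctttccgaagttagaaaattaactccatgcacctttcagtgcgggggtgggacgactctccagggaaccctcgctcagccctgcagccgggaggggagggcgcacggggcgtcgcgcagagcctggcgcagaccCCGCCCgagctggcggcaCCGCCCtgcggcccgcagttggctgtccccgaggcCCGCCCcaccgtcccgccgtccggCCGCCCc
Acadm: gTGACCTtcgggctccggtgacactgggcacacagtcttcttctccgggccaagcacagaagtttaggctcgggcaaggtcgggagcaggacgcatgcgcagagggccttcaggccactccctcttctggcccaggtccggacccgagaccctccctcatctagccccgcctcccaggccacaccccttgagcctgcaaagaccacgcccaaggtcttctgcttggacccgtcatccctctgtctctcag
Acadvl: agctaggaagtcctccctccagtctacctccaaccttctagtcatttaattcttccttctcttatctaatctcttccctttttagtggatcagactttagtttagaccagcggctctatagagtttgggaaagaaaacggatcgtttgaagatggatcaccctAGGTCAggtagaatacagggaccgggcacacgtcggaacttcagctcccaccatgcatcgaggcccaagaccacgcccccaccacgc
Hadhb: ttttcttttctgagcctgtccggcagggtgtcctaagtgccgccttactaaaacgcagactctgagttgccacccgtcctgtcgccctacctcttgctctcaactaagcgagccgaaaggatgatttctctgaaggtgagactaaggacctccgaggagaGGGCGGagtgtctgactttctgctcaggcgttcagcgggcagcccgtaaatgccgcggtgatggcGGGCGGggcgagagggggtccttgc
The core site begins 249 bases before the start of Acadm and 87 bases before that of Acadvl, and the boxes begin 84, 66, 31 and 7 bases before the start of Acadl and 90 and 25 bases before that of Hadhb. Among the 32 members with a promoter sequence, 6 (18.8%) held AGGTCA on either strand, where 15.8% of 27025 mouse genes with promoters of the same length did. A gene was counted if any of its promoter entries held the letters. The box GGGCGG, on either strand, was in 20 of the 32 (62.5%) and in 35.4% of all these genes. All these genes include ones not tested in the hearts, and no share was counted among the tested genes alone. Whether the box is more frequent in members than in other genes expressed in the heart was therefore not tested. The longer element of estrogen-related receptors, TNAAGGTCA, which contains the core site, was in 0 of the 32 and in 1.3% of all. A direct repeat of the core site with 1 base between the copies was in 0 of the 32 and in 0.0407% of all. Both are so rare as exact letters that 0 of 32 cannot tell whether members lack such sites. Sites with other letters, or outside these 250 bases, were not searched. Cpt1b, Crat, Acaa2, Decr1, Acot13 and Ppargc1b had no promoter entry.

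The dehydrogenases of the first step differ by chain length. Acadl (chr1:66830839-66863277), for long chains, was at 536, 656 and 583 CPM in controls and at 410, 407 and 427 CPM in mutant-labelled hearts. Every mutant-labelled heart was under the lowest control, and its log2 fold change of -0.51 ± 0.09 had the smallest adjusted p of all members in edgeR, 0.0810. Acadvl (chr11:70010183-70015411), for very long chains, was at 71.6, 91.4 and 84.7 CPM in controls and at 63.1, 57.5 and 57.3 CPM in mutant-labelled hearts. Its groups were apart, with a log2 fold change of -0.48 ± 0.10 and an adjusted p of 0.0849 in edgeR. In the annotation 42.9% of the exon bases of Acadvl are shared with Dvl2 on the opposite strand, and whether strand was used in counting is not given. Dvl2 had a log2 fold change of 0.39, opposite in sign. Acadm (chr3:153922357-153944632), for medium chains, was at 241, 339 and 270 CPM in controls and at 218, 207 and 197 CPM in mutant-labelled hearts, again without overlap. The log2 fold change of Acadm was -0.45 ± 0.12 with an adjusted p of 0.133 in edgeR and 0.0167 in DESeq2, and -0.30 without control heart 2. Acads, for short chains, had the smallest difference of the 4 dehydrogenases, -0.17 (95% interval -0.37 to 0.03), with overlapping groups.

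Hydration, the next dehydrogenation and thiolysis of long chains are carried out by the trifunctional protein, whose alpha and beta subunits are encoded by Hadha and Hadhb. Hadha (chr5:30118304-30155162) was at 390, 450 and 379 CPM in controls and at 340, 339 and 356 CPM in mutant-labelled hearts. Hadhb (chr5:30155248-30184593) was at 340, 422 and 352 CPM in controls and at 299, 297 and 302 CPM in mutant-labelled hearts. For both subunits the mutant-labelled hearts were under all controls, by less than the spread between the controls. The log2 fold changes were -0.24 ± 0.09 for Hadha and -0.31 ± 0.10 for Hadhb, with adjusted p of 0.206 and 0.159 in edgeR, and that of Hadha was -0.15 without control heart 2. The processed pseudogene Gm13910 holds 16.4% of the 76-base windows of Hadhb, and with its counts added the log2 fold change was -0.33.

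For shorter chains the same reactions use separate enzymes. Hadh (chr3:131233419-131272101), the hydroxyacyl-CoA dehydrogenase, was at 201, 276 and 206 CPM in controls and at 186, 190 and 179 CPM in mutant-labelled hearts, with a log2 fold change of -0.30 ± 0.12 and an adjusted p of 0.234 in edgeR. Acaa2 (chr18:74779197-74806208), the thiolase, was at 243, 348 and 297 CPM in controls and at 209, 198 and 228 CPM in mutant-labelled hearts, with a log2 fold change of -0.48 ± 0.13 and an adjusted p of 0.127 in edgeR. In both genes control heart 2 was the highest and no mutant-labelled heart reached a control. Without control heart 2 the log2 fold change of Hadh was -0.14. Echs1, the hydratase, had a log2 fold change of -0.26 with overlapping groups.

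Unsaturated fatty acids need auxiliary enzymes before they can pass through the spiral, and all 4 of those measured had negative fold changes, with 2 (Eci2 and Decr1) that fell by DESeq2's adjusted p. Eci2 (chr13:34977748-35027096), an enoyl-CoA isomerase, was at 71.7, 77.7 and 72.3 CPM in controls and at 58.6, 61.2 and 62.1 CPM in mutant-labelled hearts. Decr1 (chr4:15917240-15945507), the mitochondrial dienoyl-CoA reductase, was at 76, 82.7 and 77.4 CPM in controls and at 67.1, 63.5 and 63.2 CPM in mutant-labelled hearts. For both, the hearts within a group lay close together and the groups were apart, with log2 fold changes of -0.29 ± 0.07 and -0.28 ± 0.07 and adjusted p of 0.10 and 0.101 in edgeR. Eci1 (chr17:24426641-24439348), the other mitochondrial enoyl-CoA isomerase, was at 94.8, 137 and 117 CPM in controls and at 83.0, 96.6 and 96.4 CPM in mutant-labelled hearts. Control heart 1 lay within the mutant range of Eci1, and its log2 fold change was -0.34 ± 0.13 with an adjusted p of 0.22 in edgeR, or -0.20 without control heart 2. Ech1, a dienoyl-CoA isomerase, had a log2 fold change of -0.22 with overlapping groups.

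Electrons from the acyl-CoA dehydrogenases pass through the electron transfer flavoprotein, made of the products of Etfa and Etfb, to its dehydrogenase, encoded by Etfdh, and on to ubiquinone. Etfdh (chr3:79603788-79629500) was at 185, 231 and 216 CPM in controls and at 155, 157 and 161 CPM in mutant-labelled hearts, well apart. Its log2 fold change was -0.42 ± 0.09 with an adjusted p of 0.0924 in edgeR and 0.00353 in DESeq2. Etfa (chr9:55454508-55512243) was at 226, 323 and 249 CPM in controls and at 207, 213 and 211 CPM in mutant-labelled hearts, also without overlap but with 1 high control, and its log2 fold change was -0.34 ± 0.13 with an adjusted p of 0.207 in edgeR, or -0.17 without control heart 2. Etfb, the partner subunit, had a log2 fold change of -0.24 with overlapping groups, and 53.0% of its exon bases belong in the annotation also to Gm45233 on the same strand.

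Thioesterases split acyl-CoA into free fatty acid and coenzyme A, and all 3 that were measured fell by DESeq2's adjusted p. Acot13 (chr13:24817948-24831540), a thioesterase found on mitochondria, was at 67.7, 93.7 and 85.3 CPM in controls and at 57.8, 59.8 and 64.3 CPM in mutant-labelled hearts. Acot1 (chr12:84009490-84018371), the cytosolic enzyme and a known PPAR-alpha target, was at 39.9, 35.3 and 31.8 CPM in controls and at 27.2, 24 and 29.1 CPM in mutant-labelled hearts. Acot2 (chr12:83987861-83993873), its mitochondrial neighbour, was at 72.6, 71.0 and 60.8 CPM in controls and at 55.9, 50.5 and 57.1 CPM in mutant-labelled hearts. The groups were apart in all 3 genes, but the order of the controls was not the same, since control heart 1 was the lowest for Acot13 and the highest for Acot1 and Acot2. Log2 fold changes were -0.44 ± 0.12, -0.42 ± 0.11 and -0.32 ± 0.09, with adjusted p of 0.125, 0.125 and 0.134 in edgeR. Acot1 and Acot2 are near copies, with 11.1% and 20.3% of their 76-base windows found in the other, so their counts are not fully separate. Leaving out control heart 1, the adjusted p was 0.0161 for Acot13, 0.148 for Acot1 and 0.161 for Acot2 in edgeR.

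The lipid store was measured through the lipase Pnpla2 and the droplet coat protein Plin5, which ties droplets to mitochondria. Plin5 (chr17:56111601-56117596) was near the limit of detection, at 0.289, 0.477 and 0.617 CPM in controls and at 0.119, 0.188 and 0.205 CPM in mutant-labelled hearts, which were between 6 and 20 counts per heart. The mutant-labelled hearts were under all controls, and the log2 fold change of -1.49 ± 0.44 had a 95% interval from -2.51 to -0.47 and an adjusted p of 0.15 in edgeR, while DESeq2's filter gave it no adjusted p. Pnpla2 ranged from 40.2 to 50.6 CPM in controls and from 38.2 to 43.2 CPM in mutant-labelled hearts, with overlap.

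Pdk4 (chr6:5483351-5496309), a kinase that blocks pyruvate dehydrogenase and so favours fatty acid as fuel, was at 64.4, 68.1 and 54.8 CPM in controls and at 48.8, 46.2 and 43.3 CPM in mutant-labelled hearts. The groups were apart with control heart 3 the lowest control, and the log2 fold change was -0.44 ± 0.10, with an adjusted p of 0.0927 in edgeR and 0.00658 in DESeq2. Ucp3 was at 0.289, 0.17 and 0.247 CPM in controls and at 0.151, 0.235 and 0.205 CPM in mutant-labelled hearts, and these counts were too low for a test.

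**Figure D3:**
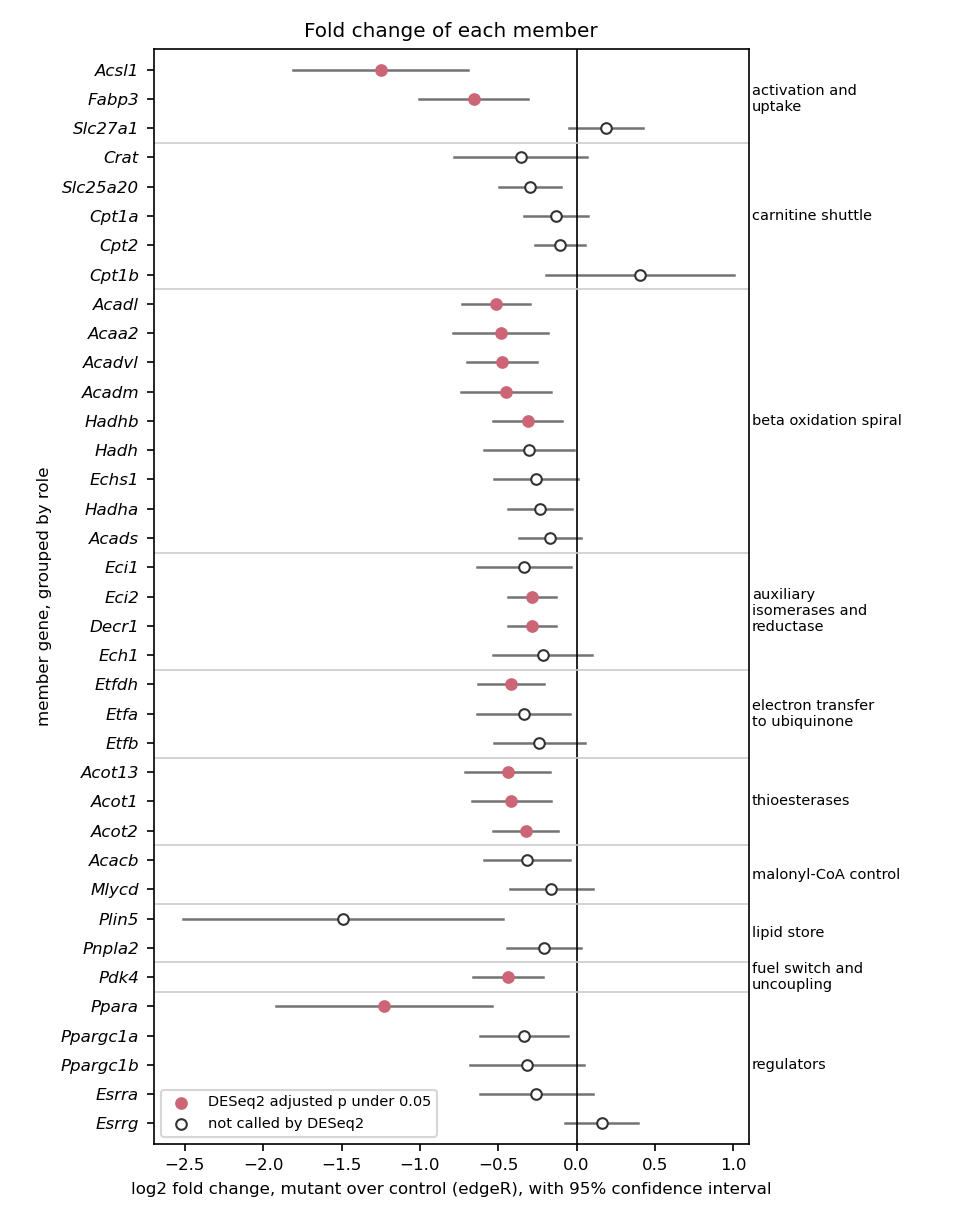
Log2 fold change of each of the 37 tested members (mutant-labelled over control, edgeR) with its 95% confidence interval, grouped by role; filled points have a DESeq2 adjusted p under 0.05. Ppara, Acsl1 and the sparsely counted Plin5 lie beyond -1, most other members lie between -0.1 and -0.7, and only Slc27a1, Cpt1b and Esrrg lie to the right of 0 (Plin5 has no DESeq2 adjusted p).

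Of the 5 regulators, Ppara had the largest fold change. Ppara (chr15:85734983-85802819), the fatty acid receptor that switches on many genes of this pathway, was at 8.28, 21.6 and 14.7 CPM in control hearts 1 to 3 and at 6.73, 5.71 and 6.49 CPM in mutant-labelled hearts 1 to 3. All mutant-labelled hearts were under the lowest control, and the controls differed among themselves by up to 2.61-fold, the widest control range of any member above 1 CPM. The log2 fold change was -1.23 ± 0.30 (SE, n = 3 and 3), a mutant mean at 42.5% of the control mean, with an adjusted p of 0.109 in edgeR and 0.000671 in DESeq2. Leaving out control heart 1, the value was -1.52 with an adjusted p of 0.00957 in edgeR, and leaving out control heart 2 it was -0.86. With any heart other than control heart 1 left out, no member had an adjusted p under 0.129 in edgeR.

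The coactivators had smaller differences, with overlap. Ppargc1a (chr5:51454250-51567726), encoding PGC-1 alpha, was at 120, 167 and 139 CPM in controls and at 121, 113 and 103 CPM in mutant-labelled hearts. Ppargc1b (chr18:61298136-61400431), encoding PGC-1 beta, was at 19.0, 27.8 and 29.6 CPM in controls and at 21.8, 20.4 and 19.1 CPM in mutant-labelled hearts. In both genes control heart 1 lay among or under the mutant-labelled hearts and controls 2 and 3 lay above them. Log2 fold changes were -0.33 ± 0.12 and -0.31 ± 0.16, with adjusted p of 0.198 and 0.313 in edgeR. Without control heart 2 that of Ppargc1a was -0.20, and that of Ppargc1b ran from -0.49 without control heart 1 to -0.19 without control heart 3.

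The estrogen-related receptors had fold changes of opposite sign. Esrra (chr19:6910977-6921813) was at 64.8, 99.5 and 93.2 CPM in controls and at 66.6, 68.0 and 81.0 CPM in mutant-labelled hearts. Esrrg (chr1:187608791-188214885) was at 79.6, 75.3 and 61.6 CPM in controls and at 85.8, 77.4 and 78.6 CPM in mutant-labelled hearts. The groups overlapped in both, with log2 fold changes of -0.26 ± 0.16 for Esrra and 0.16 ± 0.10 for Esrrg and adjusted p of 0.387 and 0.403 in edgeR. Over the fits without a heart, Esrra ran from -0.42 (without control heart 1) to -0.14 (without control heart 2), and Esrrg was 0.06 without control heart 3. The difference between the receptors was not tested.

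The promoter of Ppara is shown as that of the regulator with the largest fold change. It is the 250 bases before its RefSeq start, chr15:85735526-85735775 on the plus strand of GRCm38.p6, with an NRF1 element (GCGCA and GCGC with any base between them) in capitals, 31 bases before the start. These bases lie inside the span of Ppara given above, which is from GENCODE and begins further upstream.
Ppara: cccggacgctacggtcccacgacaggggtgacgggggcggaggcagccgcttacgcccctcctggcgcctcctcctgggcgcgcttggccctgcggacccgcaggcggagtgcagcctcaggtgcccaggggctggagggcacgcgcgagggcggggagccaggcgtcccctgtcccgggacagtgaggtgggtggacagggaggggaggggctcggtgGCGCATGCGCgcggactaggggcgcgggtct
That element, searched on both strands, was found in 3 of the 32 members (9.38%), Ppara, Etfb and Etfdh. It was in 4.23% of all genes with promoters of that length, tested in the hearts or not.

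Levels differed widely among members when set per exon length (CPM per kb of exon). In control hearts Fabp3 was the highest at 553 CPM per kb, followed by Acadl at 295, Acaa2 at 195, Etfb at 174 and Etfa at 145 CPM per kb. The lowest were Ucp3 at 0.0751, Plin5 at 0.221 and Cpt1b at 0.512 CPM per kb, and Cpt1a was at 9.91 CPM per kb. The place of Cpt1b is uncertain because of the exons it shares with Gm44502, and its count divided by its 628 unshared exon bases alone would be 2.75 CPM per kb, above Slc27a1 at 2.29 and under Cpt1a. Among regulators Ppargc1a was the highest at 21.5, followed by Esrra at 19.6, Esrrg at 11.6, Ppargc1b at 6.39 and Ppara at 3.87 CPM per kb. Exon length was the union of all annotated exons, so that genes with long or rarely used exons appear lower.

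**Figure D4:**
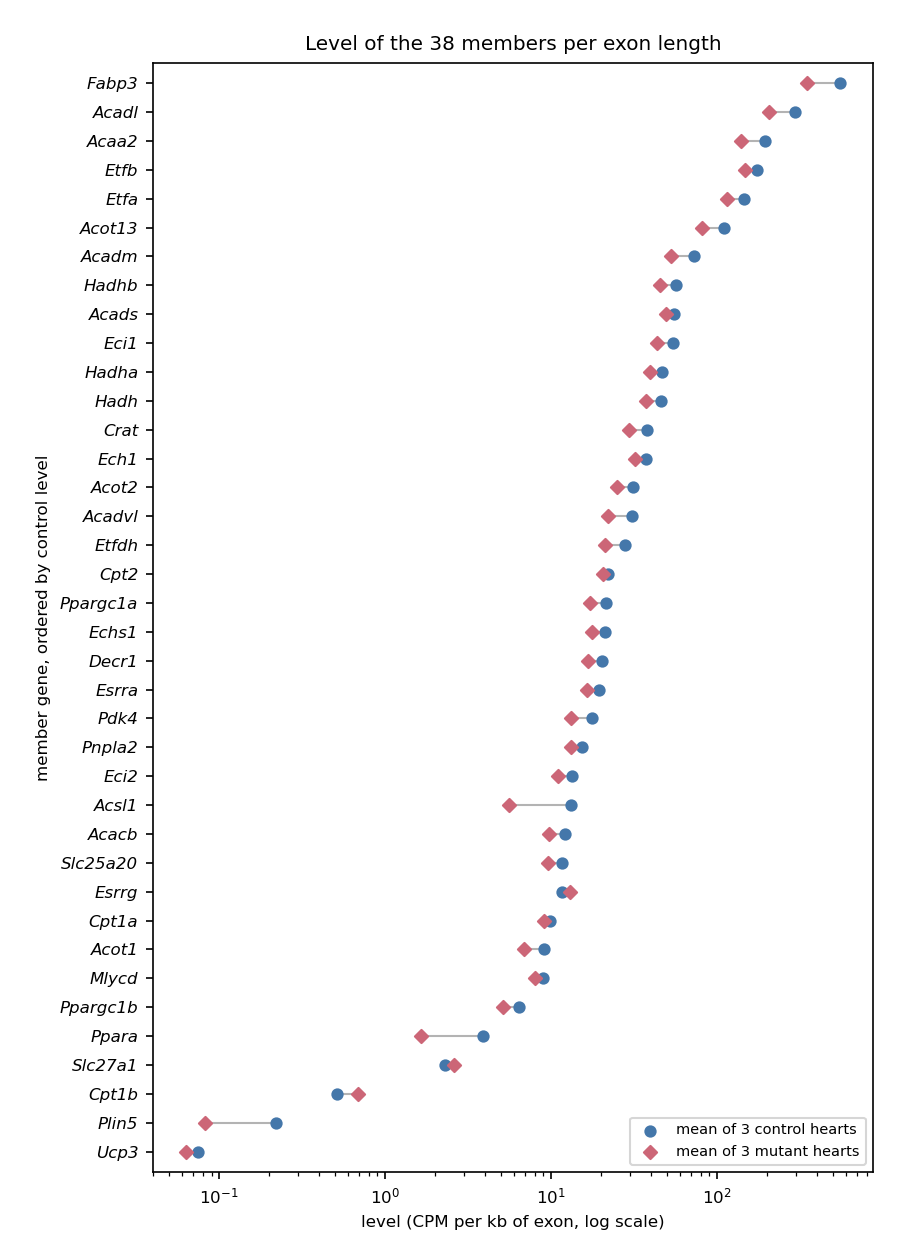
Mean level of the 38 members in CPM per kb of exon (log axis) in the 3 control hearts (circles) and the 3 mutant-labelled hearts (diamonds), ordered by the control level. Levels run from 0.0751 for Ucp3 to 553 for Fabp3 in controls, with Cpt1b placed by its full exon length, and the widest gaps between the groups are those of Plin5, Acsl1 and Ppara.

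Genes of neighbouring pathways were taken from lists that hold no member, and their counts stand beside 9.98% of all tested genes lower and 9.48% higher at the same threshold. In the list of the pyruvate dehydrogenase complex and the tricarboxylic acid cycle, 17 of 29 genes (58.6%) were lower and 1 was higher at an unadjusted p under 0.05 in edgeR, with a median log2 fold change of -0.26. Examples are Mpc1, a subunit of the mitochondrial pyruvate carrier, at -0.64 ± 0.15, the kinase Pdk1 at -0.33 ± 0.08 and the phosphatase Pdp1 at -0.44 ± 0.12, all on the log2 scale. DESeq2 called 5 of these 29 as fallen and 0 as risen.

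Other steps of lipid metabolism gave other counts. Of 25 further mitochondrial acyl-CoA and carnitine genes, 6 (24%) were lower and 1 was higher at the unadjusted threshold, with a median of -0.11, among them the acyl-CoA binding protein Dbi at -0.31 and the dehydrogenase Acad11 at -0.44. Of 22 genes of peroxisomal beta oxidation, 1 (4.55%, under the share of all genes) was lower and 0 were higher, with a median of -0.04, and that gene was Phyh, which starts the breakdown of branched chains, at -0.56 ± 0.15. Of 7 ketone body genes, 2 were lower, the thiolase Acat1 at -0.28 and the transporter Slc16a1 at -0.20, and 1 was higher, the dehydrogenase Bdh1 at 0.54. For fatty acid and triglyceride synthesis the direction differed, with 1 of 18 genes lower (5.56%), 4 higher (22.2%) and a median of 0.10. The desaturases Fads2, at 0.47 ± 0.07, and Fads1, at 0.28 ± 0.07, were among the higher genes, and Dgat2, which completes triglycerides, was lower at -1.04 ± 0.17. In lipid droplet turnover 4 of 9 genes (44.4%) were lower and 0 higher, with Plin4 at -3.07 ± 0.60, the lipase inhibitor G0s2 at -0.67 ± 0.14 and Cidea at -0.87 ± 0.22. Among 25 other lipid receptors and cofactors 6 (24%) were lower and 2 (8%) higher, with Klf15 at -1.05 ± 0.19, Perm1, a muscle regulator of PGC-1 and ERR targets, at -1.06 ± 0.21, and Esrrb at 0.43 ± 0.10. Adjusted p in edgeR was above 0.05 for every one of these genes.

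**Figure D5:**
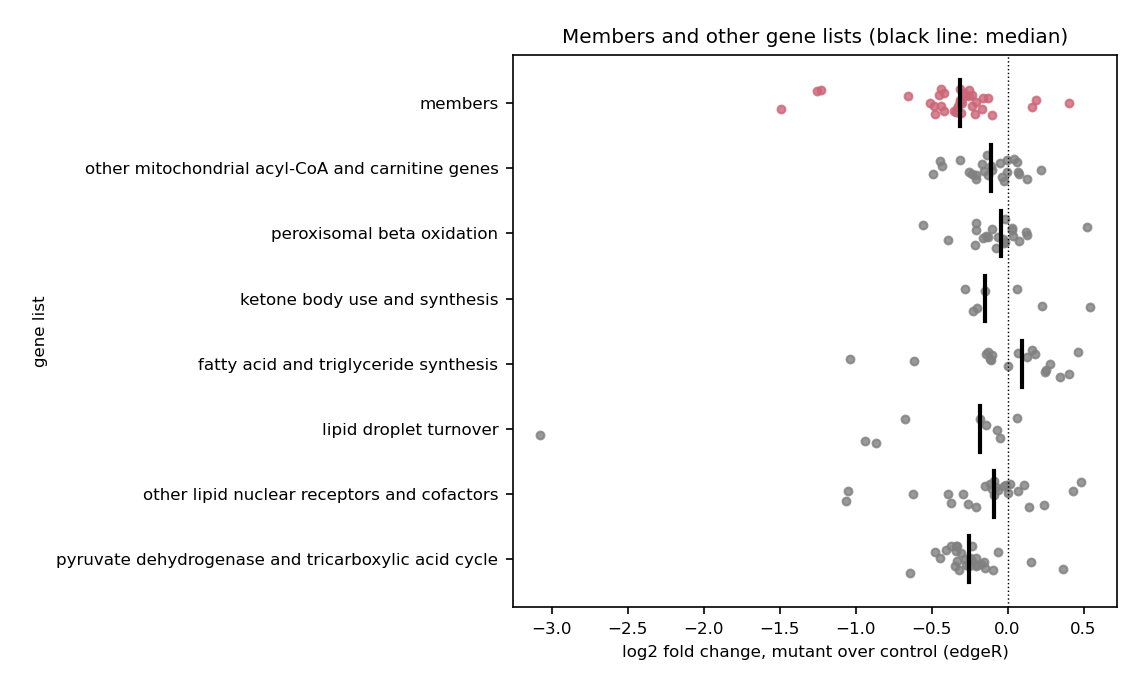
Log2 fold changes (mutant-labelled over control, edgeR) of single genes, as points, in the members and in 7 other lists, with the median of each list as a black line; vertical scatter only separates points. The medians are -0.31 for members, -0.26 for the pyruvate dehydrogenase and tricarboxylic acid list and 0.10 for synthesis, and the point near -3 is Plin4.

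Levels of cell type markers were read beside these results. Their counts at an unadjusted p under 0.05 stand beside 9.98% of all tested genes lower and 9.48% higher. Some lie near those shares, such as the lower markers of cardiomyocytes (12.5%) and of endothelium in general (10%). The summed level of 16 cardiomyocyte markers was 31260, 36268 and 38030 CPM in control hearts 1 to 3 and 30905, 31879 and 33236 CPM in mutant-labelled hearts 1 to 3, so the groups overlapped and control heart 1 was the lowest control, as for most members. Of the 16, 2 were lower (Pln and Tnni3) and 3 higher (Myl7, Myl4 and Myh6) at an unadjusted p under 0.05 in edgeR, and these, as the marker genes below, were named after their values were seen. Of 10 general endothelial markers 1 (Esam) was lower and 0 higher, with summed levels of 881 to 1091 CPM in controls and 970 to 1020 CPM in mutant-labelled hearts. Of 8 genes for lipid handling by capillary endothelium 4 were lower and 1 (Slc27a3) higher, with sums of 1036 to 1247 CPM in controls and 830 to 912 CPM in mutant-labelled hearts, without overlap. The 4 were the fatty acid translocase Cd36 at -0.92 ± 0.14, the binding protein Fabp4 at -0.96 ± 0.22, Gpihbp1, which anchors lipoprotein lipase, at -1.36 ± 0.35, and Meox2, a transcription factor of capillaries that supports fatty acid transport, at -1.08 ± 0.24, on the log2 scale. DESeq2's adjusted p was under 0.05 for each of the 4. In whole-heart RNA, which cells held the transcripts of the 8 genes was not tested. The 8 erythroid markers summed to between 4162 and 18315 CPM in controls, lowest in control heart 1, and to between 2841 and 5148 CPM in mutant-labelled hearts. Of the 8, 3 were lower with overlapping groups (Hba-a1, Hbb-bt and Alas2) and 3 higher without overlap, among them the embryonic globins Hbb-bh1, at 2.98 ± 0.31, and Hba-x, at 2.03 ± 0.49, and the receptor Epor, at 0.71 ± 0.30. Epicardial markers numbered 2 higher (Upk3b and Krt19) and 1 lower (Upk1b) of 8, with sums of 187 to 204 CPM in controls and 215 to 246 CPM in mutant-labelled hearts, without overlap. Of 6 smooth muscle and pericyte markers 2 were lower, Rgs5 at -2.62 ± 0.31 and Myh11 at -2.40 ± 0.66, and 1 (Cnn1) was higher. The groups of Myh11 overlapped at low levels. It was at 0.604, 2.96 and 4.75 CPM in controls and at 0.497, 0.705 and 0.342 CPM in mutant-labelled hearts. The sums of the 6 markers overlapped too, at 369 to 460 CPM in controls and 402 to 426 CPM in mutant-labelled hearts. Of 8 fibroblast and valve markers 3 were lower (Dcn, Lum and Postn) and 0 higher, with sums of 2884 to 4093 CPM in controls and 2722 to 3646 CPM in mutant-labelled hearts. Tissues that oxidise much fatty acid and could adhere to a heart gave low sums. The 5 brown adipocyte genes summed to 45.5 to 49.8 CPM in controls and 39.8 to 42.8 CPM in mutant-labelled hearts, without overlap. Most of each sum came from Prdm16. Ucp1, the uncoupling protein that defines brown fat, was at 0 in 5 hearts and at 0.0309 CPM in control heart 3. Of the 3 brown adipocyte genes tested, 2 were lower (Cidea and Dio2) and 0 higher. The 7 skeletal muscle genes summed to 6.60 CPM or less in each heart, and of the 3 tested 0 were lower and 0 higher. The part of any of these cell types in the levels of the members was not tested, and in whole hearts fewer cells of a type and less RNA per cell cannot be told apart.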

How the data were processed

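RNA of 3 control and 3 Tie2Cre;Ino80 fl/fl whole hearts of embryonic day 13.5 was sequenced. The authors aligned 76-base paired reads to GRCm38 with STAR 2.4.2a, used the GENCODE vM6 annotation, and deposited raw counts per gene made with summarizeOverlaps. How reads on overlapping genes were assigned and whether strand was used are not given in the sources used here. A second deposited table, holding the mean, fold change, standard error, statistic, p and adjusted p of the authors' own DESeq2 comparison, was used only for gene symbols. Columns were matched to samples by title, and groups came from the titles.

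The tests used edgeR 4.0.16 in R 4.3.3. After filterByExpr, with a minimum count of 10 and a minimum total of 15, libraries were scaled by TMM and genes tested by the quasi-likelihood method with genotype as the only term and Benjamini-Hochberg adjustment over all tested genes. DESeq2 1.42.0 was run on all genes with its default filter. SE is that of the log2 fold change, and nothing given as lower at an unadjusted p passed the adjusted threshold of 0.05 in edgeR. The ratio of 2 genes was compared by an exact permutation test. The steps were tested on simulated data. The study describes each library as an individual heart, so each heart counted as 1 replicate, and p-values measure the spread between hearts. Every pair of libraries differed by more than counting noise (chi-square per degree of freedom of at least 20.5), which alone cannot show that hearts were independent.

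All members were described by role, with full values for the 5 regulators, Cpt1a, Cpt1b and members with an unadjusted p under 0.05, 28 in all. In other pathway lists up to 3 genes with the smallest unadjusted p under 0.05 and a mean of at least 1 CPM could be named. Members and lists were chosen with earlier results of these data known. Positions, exon lengths and overlaps are from GENCODE vM21, promoters from RefSeq on GRCm38.p6. Alternatives were other size factors, DESeq2, other filters, thinning of the libraries to the smallest total, fits without each heart in turn, a replicate block, a covariate from 4 Y chromosome genes, and other thresholds.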

Additional observations from a re-analysis of the deposited data

How the results depend on the processing

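Under every alternative run, the log2 fold change kept its sign for each member tested in it, among the 28 given with full values. Of the 28, 27 were tested with at least 1 CPM in 3 hearts, which Plin5 did not reach, and 27 after thinning. The median over the members stayed between -0.39, in the fit without control replicate 1, and -0.23, in that leaving out control replicate 2. For 12 of the 28, leaving out a heart moved the fold change by over 1.5 times, and those values stand beside each gene. The count past the adjusted threshold did not hold. From 0 lower members it went to 15 with DESeq2, to 9 when every gene with at least 1 count was tested, and to between 0 and 10 when a heart was left out, the 10 being without control replicate 1. At an adjusted p under 0.1 it was 5 and under 0.2 it was 18, beside 214 and 1123 genes lower and 195 and 1101 higher in all. Members with groups apart and lower numbered 21 to 33 over the fits without a heart, the 33 being without control replicate 1. Those apart and higher numbered 0 to 2, with 1 also under upper-quartile factors, with at least 1 count and after thinning. The share of all genes with groups apart was not counted under these alternatives. Groups come apart more easily with a heart left out, and control replicate 1 was the lowest control for most members. The 33 is therefore not comparable with the main count. Members higher at an unadjusted p went from 0 to 1 after thinning and with the Y chromosome covariate. With the replicate number as a block, 0 members passed the adjusted threshold, with 13 genes lower and 1 higher in all. At an unadjusted p, 25 members were lower in that fit. The share of all genes at an unadjusted p was not counted after thinning, with the Y chromosome covariate or with the block. Deviations of hearts with the same number correlated at 0.02, -0.08 and -0.07, so the numbers were not taken as pairs. The cause of these changes was not tested. Adding the counts of the processed pseudogenes to Fabp3 and Hadhb, an alternative chosen after seeing the data, changed no call. Over all genes, calls went from 0 to 570 lower and 443 higher with DESeq2, to 341 and 262 with at least 1 count, and to 431 and 320 without control replicate 1. Counts were lowest for Plin5 and Ucp3, at 20 or fewer in every heart.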
